A study of Mus musculus with 20 samples.

Results

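The 10 genes of the insulin-like growth factor (IGF) system were followed in microglia and astrocytes of the injured mouse forebrain: the ligands Igf1 and Igf2, the receptors Igf1r and Igf2r, and the binding proteins Igfbp2, Igfbp3, Igfbp4, Igfbp5, Igfbp6 and Igfbp7. They were chosen by symbol as the known members of the family, 10 of the 39017 gene identifiers in the count table. The libraries came from adult male mice, C57BL/6 in the labels and C57BL/6J in the study's methods, 7 days after lateral fluid percussion injury (FPI), in which a fluid pulse strikes the dura through a craniectomy over the left parietal bone, or after sham injury, which comprised the same craniectomy, anaesthesia and connection to the device with no pulse. Microglia (CD11b+ with intermediate CD45) and astrocytes (ACSA-2+) were sorted from the forebrain on the injured side, and the 20 libraries, 5 per cell type and condition, were each made from a single animal with no pooling. Both groups of mice therefore carried an opened skull, and the comparison was with surgery and not with the untouched brain.

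IGF1 and IGF2 are secreted growth factors related to insulin. Both act through IGF1R, a tyrosine kinase receptor that signals through insulin receptor substrates to PI3K, AKT and mTOR, whereas IGF2R, the cation-independent mannose 6-phosphate receptor, carries lysosomal enzymes to the lysosome and clears IGF2. The binding proteins hold the ligands outside the cell and limit or prolong their action, and IGFBP7 binds the IGFs only weakly. In brain, Igf1 is known as a product of reactive microglia, Igf2 as a product of leptomeningeal and vascular cells, and Igfbp7 as a vascular product.

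After FPI, microglia held more Igf1 and more Igf2r RNA, and these were the 2 members of the 9 tested that passed the threshold in microglia. Astrocyte libraries held most of the Igf2, Igf2r, Igfbp2, Igfbp5 and Igfbp7 reads, and no member passed the threshold for FPI there. Microglia libraries held most of the Igf1 and Igfbp4 reads. Within the astrocyte libraries Igfbp7 and Igf2 were high and low together with markers of other cells, among them mural cells, the pericytes and smooth muscle of vessels.

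The sequences just before the RefSeq starts of the 2 genes that rose in microglia are shown because they differ in kind. All 10 members had a start in the RefSeq promoter table for GRCm38.p6, with 4 starts for Igf2 and 2 for Igfbp2. Each run holds the 250 bases before the start on the strand of the gene, and capitals mark GAGGAA, the core bound by the myeloid factor PU.1, or TCACGTGA, an octamer around the E-box CACGTG that resembles the lysosomal gene element bound by TFEB. Igf1 is on the plus strand at chr10:87860861-87861110, and Igf2r on the minus strand at chr17:12769707-12769956.
Igf1: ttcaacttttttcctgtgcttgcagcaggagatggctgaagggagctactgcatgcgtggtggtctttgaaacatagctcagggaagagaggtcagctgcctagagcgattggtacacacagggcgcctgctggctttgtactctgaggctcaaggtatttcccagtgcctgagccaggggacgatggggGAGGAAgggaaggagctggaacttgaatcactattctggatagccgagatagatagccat
Igf2r: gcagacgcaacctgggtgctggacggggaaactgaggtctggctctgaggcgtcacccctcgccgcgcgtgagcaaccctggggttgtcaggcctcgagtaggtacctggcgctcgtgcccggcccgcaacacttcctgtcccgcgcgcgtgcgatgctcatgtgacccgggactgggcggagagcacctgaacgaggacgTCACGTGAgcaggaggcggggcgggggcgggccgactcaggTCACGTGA

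The 2 windows share no motif of those searched on both strands. The Igf1 window had a GC content of 52.8%, 1 match to GAGGAA and no match to the GC box GGGCGG or to TATAAA. The Igf2r window had a GC content of 69.2%, 3 GC boxes and 2 copies of TCACGTGA, each of which also counts as an E-box match, and no match to GAGGAA. Of the 32851 RefSeq starts of the same length, 23.3% held GAGGAA, 32.7% a GC box and 0.785% TCACGTGA. These matches describe the letters only, and the motifs were chosen with both sequences in view. In the annotation the Igf1 gene (ENSMUSG00000020053) spans chr10:87858265-87937042, so the start used here lies inside its longest model, and the Igf2r gene (ENSMUSG00000023830) spans chr17:12682406-12769664.

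The libraries held 5623350 to 13110900 counted reads. Levels are given as CPM, the counts of a gene scaled to the same library total in every sample, so that a member at a few CPM rests on few reads, such as the 7 reads of Igf1 in sham microglia replicate 5. All 10 microglial markers exceeded 3 counts in every microglia library, and all 9 astrocyte markers did so in every astrocyte library. The summed microglial markers reached 18541 to 28710 CPM in microglia and 105 to 263 CPM in astrocyte libraries. The astrocyte sort also held RNA of other cells, with summed mural markers of 405 to 9773 CPM, oligodendrocyte markers of 1617 to 17185 CPM and oligodendrocyte precursor markers of 67.3 to 1218 CPM. The animal names of microglia replicates 4 and 5 carry a letter J, which the numbers of replicates 1 to 3 lack, and a suffix that astrocyte libraries otherwise bear. FPI astrocyte library 5 shares its animal number with FPI astrocyte library 2, and its name ends as those of microglia do. The titles and cell type labels were followed, and the effects of FPI that turn on these libraries are given with and without them. The names also show 3 animals that were sorted for both cell types, and the fits over both treat their libraries as independent. In sorted bulk samples, a level that is low because fewer cells carry the RNA and one that is low because each cell carries less cannot be told apart.

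**Figure D1:**
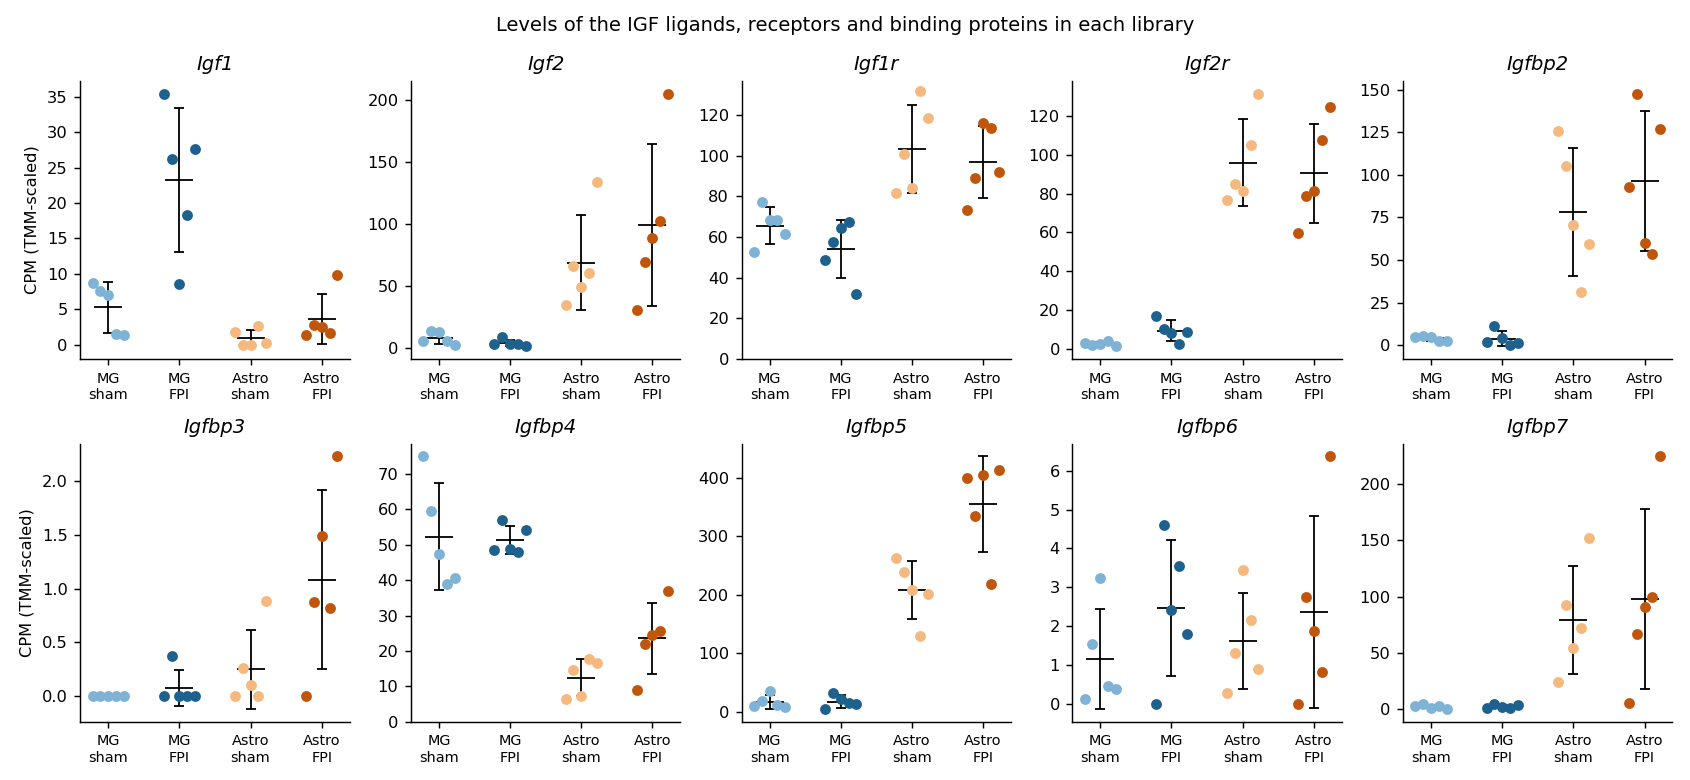
Levels of the 10 genes in every library, in TMM-scaled CPM on a linear axis, for sham and FPI microglia (MG, blue) and sham and FPI astrocytes (orange). Points are libraries in replicate order, and bars are the mean and SD of 5. Igf1 was higher in 4 of the 5 FPI microglia libraries than in any sham library, and Igfbp5 in 4 of the 5 FPI astrocyte libraries.

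Igf1, the ligand of IGF1R, was measured at 8.74, 7.60, 7.05, 1.47 and 1.32 CPM in sham microglia replicates 1 to 5. In FPI microglia it was 35.4, 26.2, 8.54, 18.3 and 27.6 CPM. Of the FPI libraries, 4 of 5 lay above every sham library, and FPI replicate 3 lay just under sham replicate 1, so the groups overlapped. The group means were 5.24 ± 3.56 and 23.2 ± 10.2 CPM (SD, n = 5 each), and Igf1 rose with a log2 fold change of 2.14 ± 0.455 (SE, edgeR quasi-likelihood test, Benjamini-Hochberg adjusted p = 0.0131). The call was 1 of 2 among the 9 members tested, where 2.35% of the 12143 genes tested in microglia were called, 2.13% higher and 0.214% lower, at an adjusted p under 0.1 and an absolute log2 fold change above 0.6.

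The sham values of Igf1 divided with the animal names. Replicates 1 to 3 held 7.05 to 8.74 CPM and replicates 4 and 5 held 1.47 and 1.32 CPM, from 13 and 7 reads. Markers of border macrophages and monocytes divided the same libraries: their sum was 306 to 461 CPM in sham replicates 1 to 3 and 21.2 to 26.7 CPM in sham replicates 4 and 5. In FPI microglia the sum was 148 to 272 CPM in replicates 1 to 3 and 23.8 to 66.9 CPM in replicates 4 and 5, so it was lower after FPI in replicates 1 to 3. Per 100 CPM of these markers Igf1 was 1.56 to 6.25 CPM in sham and 5.77 to 76.8 CPM in FPI microglia. Of these 9 markers, 3 exceeded 3 counts in all FPI microglia libraries, 1 was at 0 in all 5 of them, and 2 of the 7 tested had a higher mean after FPI, with none called. Within replicates 1 to 3 the log2 fold change of Igf1 was 1.58 ± 0.422 (edgeR, adjusted p = 0.068), and within replicates 4 and 5 it was 4.07 ± 0.495 (edgeR, adjusted p = 0.00163). With a term for the series it was 2.40 ± 0.432 (edgeR, adjusted p = 0.00295). The rise was thus present within each series.

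Igf1 stayed called when any 1 of the 10 microglia libraries was left out, with log2 fold changes of 1.90 to 2.40. When all 20 libraries shared 1 estimate of the spread, the fold change of 2.13 was no longer called (edgeR, adjusted p = 0.266).

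**Figure D2:**
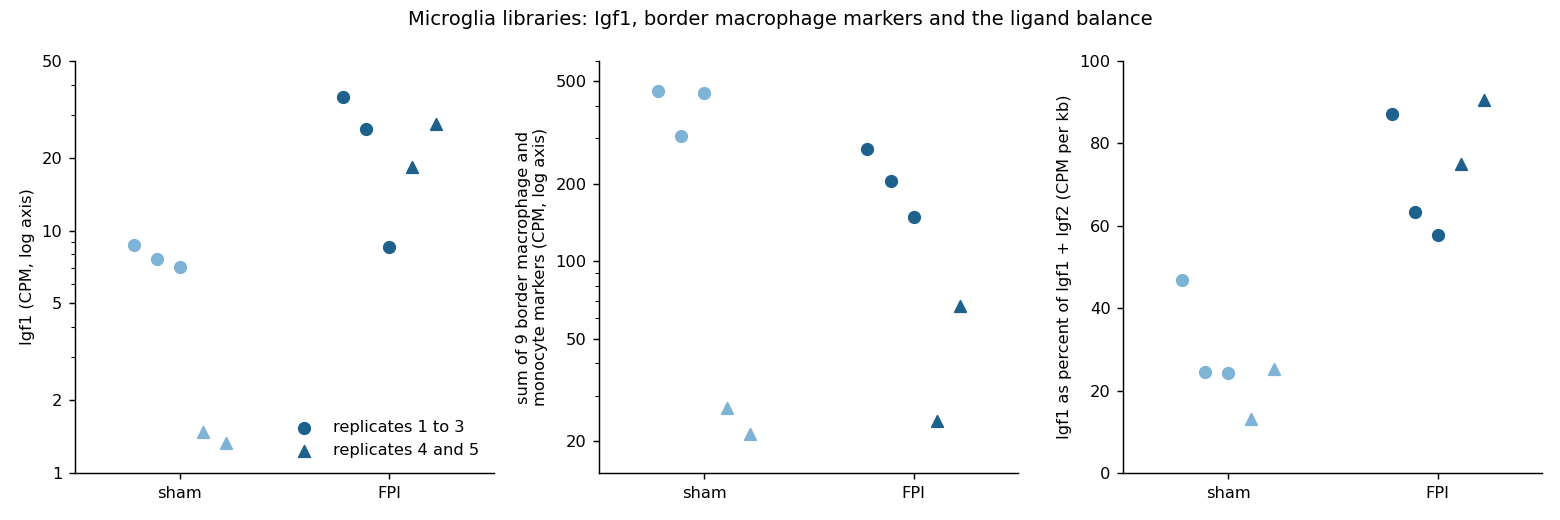
Microglia libraries by condition and animal name series (circles, replicates 1 to 3, and triangles, replicates 4 and 5). Left, Igf1 in CPM on a log axis. Middle, the sum of 9 border macrophage and monocyte markers in CPM on a log axis. Right, Igf1 as a percent of Igf1 plus Igf2 per exon length, which ran from 13.1 to 46.8 in sham and from 57.8 to 90.6 after FPI.

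Igf2, the other ligand, did not pass the test in microglia. Its levels were 5.74, 13.5, 12.8, 5.67 and 2.27 CPM in sham replicates 1 to 5 and 3.03, 8.72, 3.61, 3.54 and 1.66 CPM in FPI replicates 1 to 5. The log2 fold change was −0.95 with a 95% confidence interval of −1.98 to 0.07 (edgeR, adjusted p = 0.494), and the groups overlapped. FPI replicate 2 stood above the other FPI libraries, and it also held the highest sum of meningeal and perivascular fibroblast markers of that group, at 59.6 CPM against 7.70 to 25.4 CPM in the others. Without it the log2 fold change was −1.42 (edgeR, adjusted p = 0.305).

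The balance of the 2 ligands was compared within each library, per kilobase of exon, which needs no scaling between libraries. Igf1 made up 46.8, 24.6, 24.2, 13.1 and 25.2% of the ligand signal in sham microglia replicates 1 to 5 and 87.1, 63.4, 57.8, 74.9 and 90.6% in FPI replicates 1 to 5. The groups did not overlap on this measure, though they did on each of the 2 genes alone. How many other gene pairs would separate the groups was not examined. The measure combines the 2 genes after their values were seen, and it is given as a description with no test. In astrocyte libraries Igf1 made up at most 2.79% of the ligand signal.

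Igf2r, the mannose 6-phosphate receptor, was low in sham microglia, at 3.25, 1.83, 2.68, 4.08 and 1.32 CPM in replicates 1 to 5. In FPI microglia it was 17.1, 10.5, 8.42, 2.62 and 8.83 CPM. All FPI libraries but replicate 4, which lay inside the sham range, were above every sham library. The group means were 2.63 ± 1.10 and 9.49 ± 5.20 CPM, and the log2 fold change was 1.86 ± 0.465 (edgeR, adjusted p = 0.0432). The call was lost without sham replicate 2, sham replicate 3, FPI replicate 1 or FPI replicate 2, with edgeR adjusted p-values of 0.105 to 0.142 and log2 fold changes of 1.52 to 1.87. Within replicates 1 to 3 the log2 fold change was 2.21 (edgeR, adjusted p = 0.0299), and within replicates 4 and 5 it was 1.12 (edgeR, adjusted p = 0.67).

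Igf2r was about 2.74% of its astrocyte level in sham microglia and 10.5% in FPI microglia. Astrocyte markers in the microglia libraries amounted to 1.41% of their astrocyte level in sham and 2.16% after FPI, and the log2 fold changes of all 9 were above 0, with a median of 0.69 and 1 called. Slc1a2 and Slc1a3 made up most of the astrocyte marker sum there. Their medians were 113 and 156 CPM in sham and 147 and 160 CPM in FPI microglia, so the summed share mainly follows these genes. None of the other members that were high in astrocytes was called in microglia: Igf2, Igfbp2, Igfbp5 and Igfbp7 had log2 fold changes of −0.95, −0.070, 0.036 and 0.18. Oligodendrocyte markers also differed, with a sum of 134 to 192 CPM in sham and 196 to 286 CPM in FPI microglia. Of the 5 tested, 4 had log2 fold changes above 0, with a median of 0.26 and 1 called. Of the 2 oligodendrocyte precursor markers tested, 1 was above 0 and called. The part of astrocyte RNA or of other cells in the Igf2r rise was not tested. Airn, the noncoding RNA antisense to Igf2r, had 0 reads in sham and 11 reads in FPI microglia, and since the strand setting of the counting is not given in the sources used here, reads of overlapping genes could not be assigned by strand.

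Igf1r, the signalling receptor, was present in all microglia libraries, at 52.5, 77.2, 68.5, 68.3 and 61.3 CPM in sham and 48.9, 57.3, 64.6, 67.4 and 32.0 CPM after FPI. Its log2 fold change of −0.27 had a 95% confidence interval of −0.62 to 0.08 (edgeR, adjusted p = 0.631). In astrocytes the log2 fold change was −0.070, with an interval of −0.47 to 0.33 (edgeR, adjusted p = 0.999). Its group means were 65.6 CPM in sham and 54.0 CPM in FPI microglia, and 103 CPM in sham and 96.9 CPM in FPI astrocytes.

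Among the binding proteins of microglia, only Igfbp4 was abundant. Sham replicates 1 to 5 held 75.1, 59.7, 47.4, 39.0 and 40.5 CPM, and FPI replicates held 48.5, 57.1, 48.9, 48.0 and 54.1 CPM. The group means of 52.3 ± 15.1 and 51.3 ± 4.05 CPM differed by far less than the spread between libraries, and the 95% confidence interval of the log2 fold change was −0.38 to 0.35. IGFBP4 is known as an inhibitor of IGF action that the protease PAPPA inactivates.

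The remaining binding proteins were low in microglia. Igfbp5 ran from 4.78 to 35.9 CPM over all 10 libraries, Igfbp2 from 0 to 11.3 CPM, Igfbp7 from 0 to 4.24 CPM and Igfbp6 from 0 to 4.61 CPM. Their log2 fold changes were 0.036, −0.070, 0.18 and 1.07, none called. The 95% confidence intervals were −0.83 to 0.90 for Igfbp5 and −1.58 to 1.44 for Igfbp2. For Igfbp7 the interval was −1.36 to 1.72 and for Igfbp6 −0.83 to 2.96, so changes of either sign are not excluded. Igfbp3 had 3 reads in 1 FPI library and 0 in the other microglia libraries, so it was under the filter on low counts.

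Per kilobase of exon, Igfbp4 stood alone at the top in microglia, at 11.9 ± 3.43 CPM per kb in sham against 3.91 ± 0.549 for Igf1r, a gap of 3.24 pooled SDs. From Igf1r down to Igf2r each sham neighbour differed from the next by less than 1 pooled SD. Igf1 stood in place 8 of 10 in sham microglia, at 0.529 ± 0.359 CPM per kb, and in place 4 after FPI, at 2.34 ± 1.03 CPM per kb, where its neighbours did not differ from it beyond their spread. After FPI, Igf2r stood at 1.02 ± 0.559 CPM per kb, above Igf2 at 0.719 ± 0.471.

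**Figure D3:**
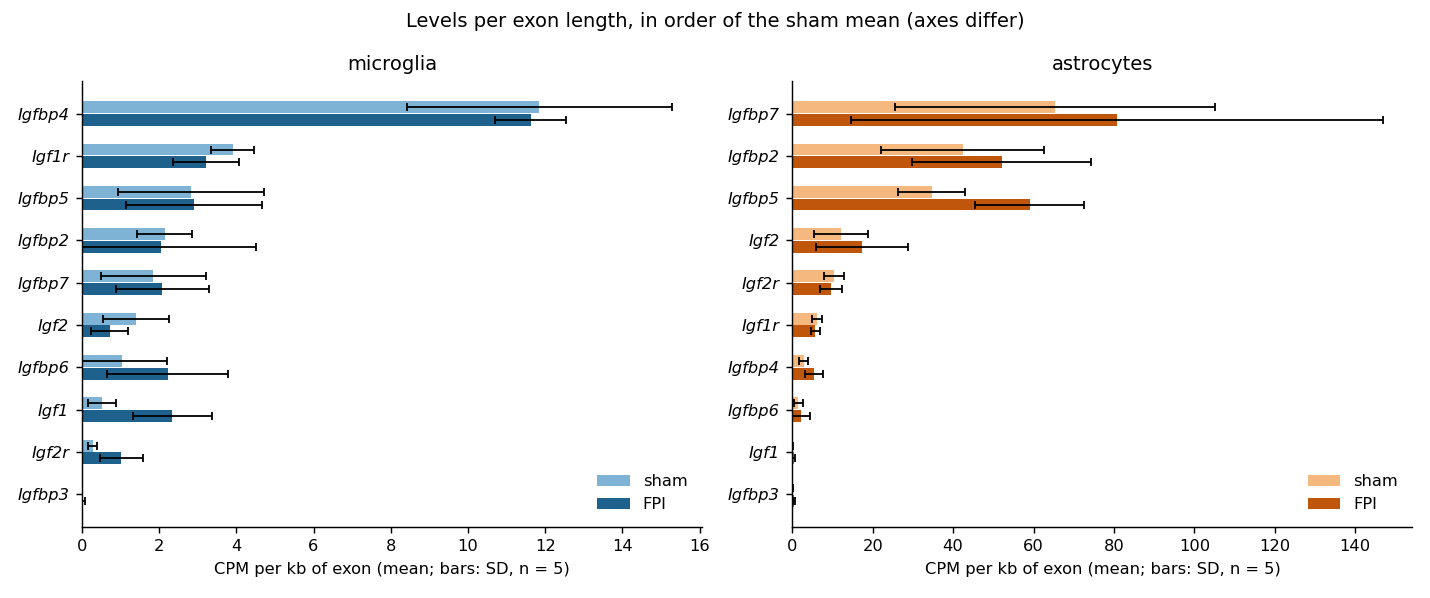
Mean level of each gene in CPM per kb of exon, with SD of 5 libraries, in microglia (left) and astrocytes (right) for sham (light) and FPI (dark), on linear axes that differ between the panels. Igfbp4 led in microglia at 11.9 in sham, and Igfbp7, Igfbp2 and Igfbp5 led in astrocytes at 65.4, 42.4 and 34.6.

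The cell types were compared over all 20 libraries to find which sort held each ligand, receptor and binding protein. Of the 9 members tested, 2 were higher in microglia and 6 in astrocytes, against a background in which 64.2% of 15077 genes were called, 27.1% higher in microglia and 37.2% higher in astrocytes. Igf1 was higher in microglia by a log2 difference of 2.63 ± 0.576 (edgeR, adjusted p = 3.4e-04) and Igfbp4 by 1.60 ± 0.221 (edgeR, adjusted p = 1.31e-06). Toward astrocytes the log2 differences, microglia minus astrocytes, were −0.75 for Igf1r, −3.83 for Igf2, −3.98 for Igfbp5, −4.20 for Igf2r, −4.46 for Igfbp2 and −5.15 for Igfbp7, with edgeR adjusted p-values of 4.53e-12 to 4.77e-05. Igfbp6, at −0.19 ± 0.71, was not called (edgeR, adjusted p = 0.818). The same 8 members were called in sham libraries alone, in FPI libraries alone and in the 3 animals that gave both cell types with the animal as a block. The Igf2r difference was −5.17 in sham libraries alone and −3.24 in FPI libraries alone.

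Levels in the lower cell type were set against the carry-over of marker genes. In microglia, Igfbp7 was 2.83% of its astrocyte level in sham and 2.58% after FPI, Igfbp2 5.06 and 3.94%, Igfbp5 8.14 and 4.92%, and Igf2 11.6 and 4.14%. In the same libraries mural markers were at 0.846 and 0.799% of their astrocyte-sort level, oligodendrocyte markers at 2.27 and 2.91%, and fibroblast markers at 18.3 and 8.91%. In the other direction Igf1 in astrocyte libraries was 17.3 and 15.6% of its microglia level and Igfbp4 was 23.9 and 45.9%, whereas microglial markers were at 0.519 and 0.829%. The part of other cells in these low levels was not tested beyond these shares.

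Astrocyte libraries led with 3 binding proteins. Per kilobase, Igfbp7 stood at 65.4 ± 39.8, Igfbp2 at 42.4 ± 20.3 and Igfbp5 at 34.6 ± 8.31 CPM per kb in sham, and these did not differ from one another beyond their spread. Igf2 followed at 12 ± 6.67 and Igf2r at 10.3 ± 2.43, then Igf1r at 6.16 ± 1.29 and Igfbp4 at 2.83 ± 1.20 CPM per kb. The step from Igfbp5 to Igf2 was 3.00 pooled SDs and that from Igf2r to Igf1r 2.13 pooled SDs. Igf1 and Igfbp3 came last, at 0.0916 and 0.0797 CPM per kb.

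Igfbp5 and Igfbp4 gave the smallest unadjusted p-values for FPI among the members in astrocytes, and neither was called here. The study does list Igfbp5 among its injury genes in astrocytes, as a gene shared with a mild injury model. It used the same thresholds with DESeq2 on counts estimated by salmon, and it called more astrocyte genes than were called here. Igfbp5, a matrix-binding member of the family, was measured at 262, 239, 209, 130.0 and 201 CPM in sham replicates 1 to 5 and at 400.0, 335, 405, 219 and 413 CPM in FPI replicates. Only FPI replicate 4 lay inside the sham range. The means were 208 ± 49.9 and 354 ± 81.8 CPM and the log2 fold change was 0.80 ± 0.233, with an unadjusted p of 0.00489 and an adjusted p of 0.999 by edgeR over all 13741 genes tested. The adjusted p stayed above the threshold under every alternative, down to 0.155 with the replicate number as a block, and leaving out any 1 library gave log2 fold changes of 0.67 to 0.93. In this comparison 1 gene of all those tested, 0.00728%, was called, and 2.32% had an unadjusted p under 0.05, against 2 of the 9 members.

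Igfbp4 in astrocytes was 6.37, 14.5, 7.30, 17.6 and 16.6 CPM in sham replicates 1 to 5 and 8.95, 21.9, 24.5, 25.5 and 36.8 CPM in FPI replicates. Every FPI library but replicate 1 was above all sham libraries. The log2 fold change was 0.93 ± 0.373 (edgeR, unadjusted p = 0.0274, adjusted p = 0.999), and it was 0.69 without FPI replicate 5. Fibroblast markers differed in the same direction: the log2 fold changes of all 7 were above 0, with a median of 1.07 and none called, and their sum was 114 to 263 CPM in sham and 137 to 642 CPM after FPI. Per 100 CPM of that sum, Igfbp4 varied from 5.58 to 11 CPM over the 10 libraries, a range of 1.98-fold where Igfbp4 itself ranged 5.79-fold. Other lists also differed in this direction, with none called. All 8 mural, 4 oligodendrocyte precursor, 4 ependymal and 8 tested microglial markers had log2 fold changes above 0. Their medians were 0.33, 2.18, 0.60 and 2.37. Signs were mixed in others, such as endothelial markers, with 5 of 7 above 0, and astrocyte markers, with 2 of 9. The part of fibroblast RNA or of other cells was not tested.

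**Figure D4:**
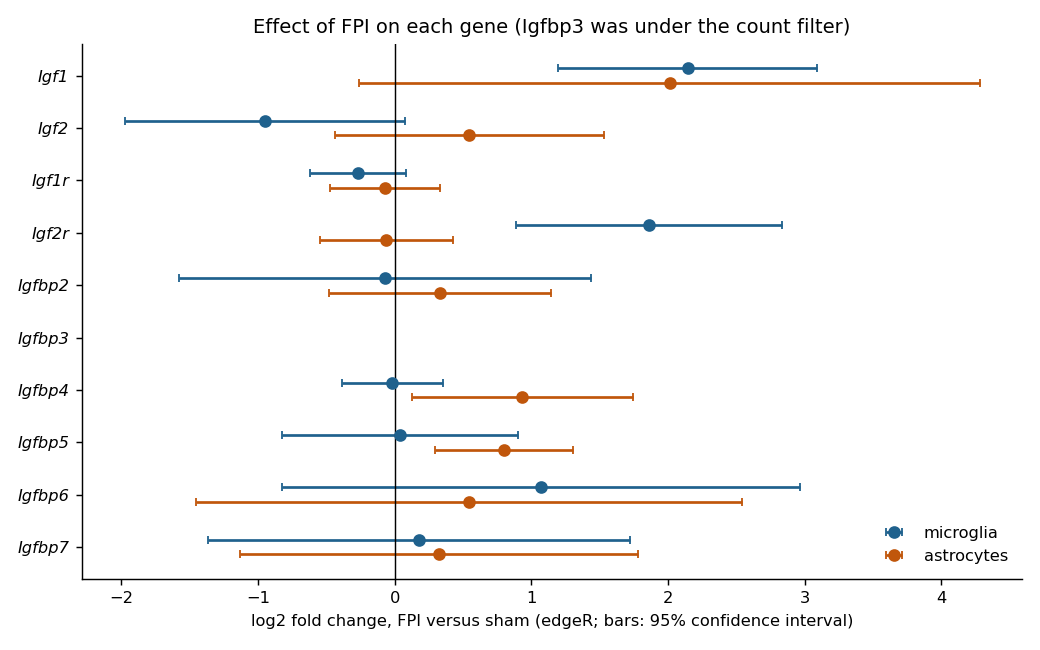
Log2 fold change of each gene, FPI versus sham, in microglia (blue) and astrocytes (orange), with 95% confidence intervals from edgeR. The intervals of Igf1 and Igf2r in microglia, 1.19 to 3.09 and 0.89 to 2.83, lie above 0, as do those of Igfbp4 and Igfbp5 in astrocytes, which were not called after adjustment.

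The other members did not pass the test for FPI in astrocytes. Igf1 was at 1.72, 0, 0, 2.56 and 0.252 CPM in sham replicates 1 to 5 and at 1.34, 2.75, 2.49, 1.64 and 9.88 CPM in FPI replicates. The log2 fold change of 2.01 had a 95% confidence interval of −0.26 to 4.28 (edgeR, adjusted p = 0.999) and was 1.18 without FPI replicate 5, whose oligodendrocyte precursor markers, at 1218 CPM, were also the highest of the astrocyte libraries. Microglial markers differed in the same direction: all 8 that were tested in astrocytes had a higher mean after FPI. Their median log2 fold change was 2.37, and none was called. The sum of all 10 microglial markers ran from 105 to 182 CPM in sham and from 125 to 263 CPM after FPI. Sall1 made up much of that sum, with medians of 93.2 CPM in sham and 96.5 CPM in FPI astrocyte libraries. Csf1r, in contrast, had medians of 1.26 and 15.1 CPM, and Cx3cr1 0.530 and 9.98 CPM. The part of microglial RNA in the Igf1 values was not tested. Igf2r stood at 76.8, 84.8, 81.5, 105 and 131 CPM in sham and 59.9, 78.9, 81.2, 108 and 124 CPM after FPI, with an interval of −0.55 to 0.42 for the log2 fold change. Igfbp2, which brain astrocytes are known to make, was at 126, 105, 70.4, 31.1 and 59.1 CPM in sham and 93.0, 148, 60.2, 53.3 and 127 CPM after FPI, with a log2 fold change of 0.33 and an interval of −0.48 to 1.15.

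Igfbp3 and Igfbp6 were at the edge of detection. Igfbp3 had 11 reads over the 5 sham and 40 reads over the 5 FPI astrocyte libraries, at 0 to 0.883 and 0 to 2.23 CPM. On log2(CPM + 0.5) the difference was 0.99 (exact permutation test, two-sided, n = 5 each, p = 0.135, smallest possible 0.00794). In microglia the same test gave a difference of 0.16 (exact permutation test, n = 5 each, p = 1). Igfbp6 ran from 0 to 6.38 CPM in astrocytes and its log2 fold change of 0.54 had an interval of −1.46 to 2.54.

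Igfbp7 and Igf2 differed widely between astrocyte libraries, and so did the mural markers. Igfbp7 was 24, 92.2, 54.1, 72.4 and 152 CPM in sham replicates 1 to 5 and 5.66, 67, 91.1, 99.3 and 225 CPM in FPI replicates. The sum of the 8 mural markers was 1355, 3543, 2522, 3892 and 7197 CPM and 405, 3167, 3409, 5574 and 9773 CPM in the same libraries. Both measures were lowest in replicate 1 and highest in replicate 5 of each condition. Igfbp7 ranged 39.7-fold over the 10 libraries and the mural sum 24.1-fold, but Igfbp7 per 100 CPM of mural markers stayed between 1.40 and 2.67 CPM, a range of 1.91-fold. Per 100 CPM of astrocyte markers it ranged 81.7-fold, and per 100 CPM of fibroblast markers 14.8-fold. Without FPI replicate 5, Igfbp7 ranged 26.9-fold and the mural sum 17.8-fold, and their ratio ranged 1.91-fold as before. Without the replicates numbered 1, Igfbp7 ranged 4.15-fold. Per 100 CPM of mural markers it then lay between 1.78 and 2.67 CPM. In those libraries it ranged 1.96-fold per 100 CPM of fibroblast markers and 6.88-fold per 100 CPM of astrocyte markers. The wide range per fibroblast markers therefore rested on the replicates numbered 1, and without them mural and fibroblast markers were hardly told apart.

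Igf2 was at 34.7, 66.0, 49.6, 60.6 and 134 CPM in sham astrocyte replicates 1 to 5 and at 31.0, 69.1, 88.5, 103 and 205 CPM in FPI replicates. Without the replicates numbered 1 it varied from 1.56 to 2.60 CPM per 100 CPM of mural markers, a range of 1.67-fold where Igf2 ranged 4.13-fold. With them the range was 4.91-fold, because FPI replicate 1 held 7.65 CPM of Igf2 per 100 CPM of mural markers. Igf2 also kept within 2.24-fold per unit of fibroblast markers over all 10 libraries, a sum that itself ranged 5.63-fold. The sum of oligodendrocyte precursor markers, which ranged 18.1-fold, moved along as well: per 100 CPM of these Igf2 ranged 2.73-fold and Igfbp7 4.30-fold. That sum was mostly Cspg4, with medians of 240 CPM in sham and 278 CPM in FPI astrocyte libraries. It therefore mainly follows this 1 gene, which ran from 26.6 to 794 CPM in FPI astrocyte libraries, and not the list of precursor markers. Pdgfra, Gpr17 and Tnr had medians of 2.82 to 10.7 CPM in sham and 17.0 to 20.8 CPM after FPI. Igf2 and Igfbp7 thus shared their spread with marker sums of other cell types in libraries sorted for astrocytes. These cell types cannot be told apart over 10 libraries, and whether astrocytes themselves made Igf2 and Igfbp7 was not tested. Their log2 fold changes for FPI were 0.55 and 0.32, with 95% confidence intervals of −0.44 to 1.53 and −1.14 to 1.78, and without FPI replicate 5 they were 0.080 and −0.26.

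Igfbp5 and Igfbp2 did not share that pattern. FPI replicate 1, the library with the fewest mural reads, held 400.0 CPM of Igfbp5 and 93.0 CPM of Igfbp2. Igfbp5 itself ranged 3.18-fold and Igfbp2 4.74-fold. Per 100 CPM of mural markers they ranged 35.3-fold and 28.7-fold. Per 100 CPM of astrocyte markers the ranges were 3.28-fold and 2.98-fold, so this scaling did not narrow that of Igfbp5. Igf2r ranged only 2.19-fold over the 10 libraries, with its lowest value in FPI replicate 1 and its highest in sham replicate 5. Mural markers were also lowest in FPI replicate 1 and were high in sham replicate 5. Per 100 CPM of astrocyte markers Igf2r ranged 5.46-fold and per 100 CPM of mural markers 11.6-fold, so neither scaling narrowed its range.

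**Figure D5:**
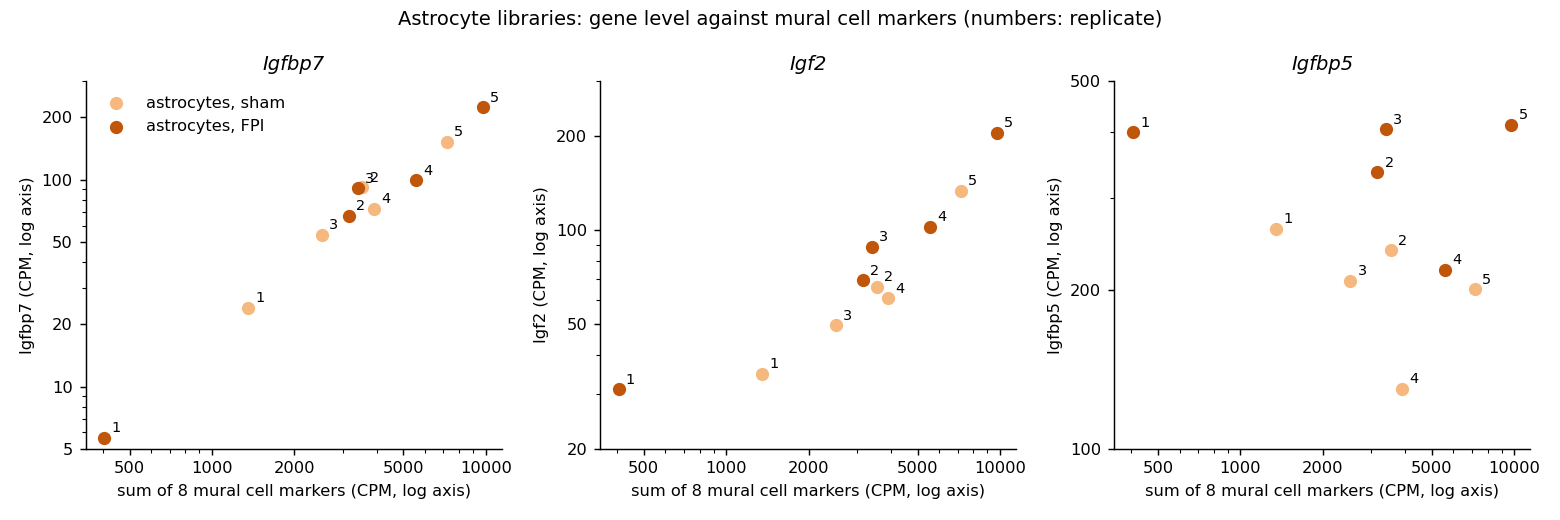
Level of Igfbp7, Igf2 and Igfbp5 in CPM against the sum of 8 mural cell markers in CPM, both on log axes, for the 5 sham (light) and 5 FPI (dark) astrocyte libraries, numbered by replicate. Igfbp7 rises with the markers over a 39.7-fold range, Igf2 does so less steeply, and Igfbp5 is as high in the library with the fewest mural reads, at 400.0, as in the one with the most, at 413.

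The effect of FPI was then compared between the cell types by an interaction term over all 20 libraries. No member was called, and 0.199% of all genes were. At an unadjusted p under 0.05, which 7.02% of all genes met, 3 of the 9 members differed. The log2 effect of FPI on Igf2r was larger in microglia by 1.93 (95% confidence interval 0.93 to 2.93, edgeR, unadjusted p = 0.000639, adjusted p = 0.182), that on Igf2 differed by −1.51 and that on Igfbp4 by −0.94. Of the 20 fits that each left out 1 library, Igf2r was called only in that without FPI microglia replicate 4 (edgeR, adjusted p = 0.0374). That replicate is the FPI microglia library inside the sham range of Igf2r. In the other 19 fits Igf2r was not called, with edgeR adjusted p-values up to 0.348. For Igf1 the difference of 0.15 had an interval of −2.44 to 2.74, too wide to tell whether the cell types responded alike.

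The rest of the pathway was read from a list of 50 further genes. In microglia 34 were tested and none was called, with a median log2 fold change of −0.10 beside −0.0094 over all genes. Among the smallest p-values were those of Stat5b, a transducer of growth hormone signals, at −0.30 ± 0.134, and of the transcription factor Foxo3 at −0.22 ± 0.106, with edgeR adjusted p-values of 0.393 and 0.441. In astrocytes 38 were tested and none was called, with a median of 0.016 beside −0.0052 over all genes. There Foxo4 was at 0.61 ± 0.248, the insulin receptor Insr at −0.29 ± 0.145 and the binding protein protease Htra1 at −0.46 ± 0.374, each with an edgeR adjusted p of 0.999. Igfbp1 and the insulin genes Ins1 and Ins2 did not reach the filter in either cell type.

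Between the cell types 20 of the 39 genes of this list that were tested were called, 11 higher in microglia and 9 higher in astrocytes, or 51.3% against the 64.2% of all genes tested. Both binding protein receptors on the list, Lrp1 and Tmem219, were higher in microglia, by 1.11 and 1.68. Both tested genes among the proteases and their inhibitors were higher in astrocytes, Htra1 by a log2 difference of −7.75, and Stc1, a secreted inhibitor of PAPPA, with 0 reads in all microglia libraries and group means of 1.42 CPM in sham and 2.50 CPM in FPI astrocytes. Among the receptor adaptors Irs1 was higher in astrocytes, at −5.47 ± 0.315, and Grb2 in microglia, at 1.68 ± 0.116. Rptor, the mTORC1 scaffold, was higher in microglia at 2.18 ± 0.0955, and Ghr, the growth hormone receptor, was higher in astrocytes at −5.82 ± 0.471. The edgeR adjusted p-values of these genes were 1.83e-14 to 4.99e-05. No gene of the list was called for a difference in the FPI effect between the cell types, and among the smallest p-values that of Foxo4 went with a difference of −0.74. That of Igfbpl1 rests on 0 reads in sham and 11 reads in FPI microglia, beside 70 and 74 reads in astrocytes.

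The genes whose log2 levels were most like those of Igf1 over the 10 microglia libraries were Prdx6, a peroxiredoxin, with a Pearson r of 0.930, Siglec1, the macrophage sialic acid receptor also used as an interferon marker, with 0.923, and AI607873 with 0.923. For Igf2r they were Parp14, Eif2ak2, which encodes the interferon-induced kinase PKR, and Slirp, with r of 0.962, 0.953 and 0.944. For Igfbp5 over the 10 astrocyte libraries they were Dzip1l, Kcnd3 and Ccs, with r of 0.915, 0.904 and 0.901. These libraries span both conditions, so genes that differ with FPI share that difference, and each correlation is the highest among all genes tested. Siglec1 itself had a log2 fold change of 1.72 (edgeR, adjusted p = 0.0299) and Parp14 one of 0.89 (edgeR, adjusted p = 0.00583) in microglia.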

How the data were processed

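The files are tables of read counts per Ensembl gene: the authors deposited whole-number counts, with no normalization, for 20 libraries. Per the labels and methods, libraries were made with the SMARTer Stranded Total RNA-Seq Pico kit and aligned with HISAT2 2.1.0 to mm10 (GRCm38.p6), and featureCounts is named in the submitters' processing notes. Its strand setting is not given in the sources used here. Counts were fitted in edgeR 4.0.16 (R 4.3.3) with TMM scaling, its default filter on low counts and quasi-likelihood tests. FPI and sham were compared within each cell type, and cell types and the interaction over all 20 libraries. Genes were called at a Benjamini-Hochberg adjusted p under 0.1 over all genes tested and an absolute log2 fold change above 0.6, and the interaction at an adjusted p under 0.1. By the study's methods each library is one animal, but the names give FPI astrocyte libraries 2 and 5 the same animal number, so that p-values may rest on fewer animals there. Levels are CPM on the TMM scale of all 20 libraries, as mean ± SD, and per kb of the exon union in GENCODE M21, which held 37607 of the 39017 identifiers and 99.81% of counts. CPM and fold changes rest on 5623350 to 13110900 counts per library. Igfbp3, under the filter, was tested by exact permutation on log2(CPM + 0.5). The named genes are the 10 members, from the pathway list those called for FPI or among the 3 smallest p of a fit, the 3 genes most like Igf1, Igf2r and Igfbp5, and a few pathway genes of the cell type comparison added after their values were seen. One gene that this rule names is not reported here. The members, lists and markers were chosen with earlier results of these data known. The fit was tested on simulated data. Alternatives included DESeq2 1.42.0, RLE factors, other count filters, robust empirical Bayes, a replicate block, terms for animal name series and each library left out. No per-sample column lacked a sample (0).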

Additional observations from a re-analysis of the deposited data

Results flagged for a closer look

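Of the 38 sets of 5 libraries of a member that were examined for a single library far from the others, 2 stood out, and chance alone gives about 1 in 20. Igf1 in FPI astrocyte library 5 was 9.88 CPM where the other 4 FPI astrocyte libraries held 1.34 to 2.75 CPM, a gap of 0.835 of the whole range. Igf2 in FPI microglia library 2 was 8.72 CPM where the others held 1.66 to 3.61 CPM, a gap of 0.725 of the range. Both exceed Dixon's critical value for 5 libraries at the 95% level.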

How the results depend on the processing

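Limits: each group holds 5 libraries, and the FPI astrocyte libraries may come from fewer animals, and members under a few CPM rest on few reads. In microglia 121 genes were called with all 20 libraries fitted together and 99 in replicates 4 and 5 only, and 177 to 423 when a library was left out, the fewest without sham replicate 2 or FPI replicate 2. Members called in microglia fell to 1 with the replicate block, with all 20 libraries and in replicates 4 and 5, to 0 with at least 10 counts in every library, a filter that removes both, and were 1 to 2 with a library left out. In astrocytes DESeq2 called 23 genes, keeping every gene with at least 1 count 9, robust empirical Bayes 0, the filter of at least 10 counts 0, the replicate block 11, all 20 libraries 53, a term for replicates 4 and 5 6, FPI libraries 2 and 5 summed 0, and leaving out a library 0 to 3, with no member called in any. Between cell types, at least 10 counts in every library left 4515 genes and 4 members called, because fewer genes were tested, and leaving out a library gave 9808 to 9957. For the interaction DESeq2 called 191 genes and 1 member (Igf2r, adjusted p = 0.0244), at least 10 counts 1 gene, the fit without the astrocyte libraries of the 3 animals 69 and without their microglia libraries 8, and leaving out a library 21 to 48 genes and 0 to 1 members. With the replicate block Igf2r in microglia was 1.79 (adjusted p = 0.120). Replicate numbers were not taken as pairs, since no source ties them to a batch and not every same-number correlation exceeded 0.1. These were −0.0758 to 0.0832 in microglia. In astrocytes 4 of 5 were 0.266 to 0.490 and the other −0.00654, a hint from the data that numbers there share something, and not every library correlated best with its own number.

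Members that changed sign had differences near 0 or wide intervals, and the cause was not tested. In microglia Igfbp4 was 0.025 with the replicate block, 0.011 with the series term and 0.41 in replicates 4 and 5, and in replicates 1 to 3 Igfbp2 was 0.22, Igfbp5 −0.15 and Igfbp7 −0.14. Igfbp7 in astrocytes was −0.043 with the replicate block. The cell type difference of Igfbp6 was 0.018 with libraries 2 and 5 summed and 0.076 in FPI libraries only. The interaction of Igf1 was −0.065 with the replicate block and −0.76 without the astrocyte libraries of the 3 animals, and without their microglia libraries those of Igfbp2, Igfbp5 and Igfbp7 were 0.074, 0.22 and 0.16. With a library left out, ranges crossing 0 were, in microglia, −1.04 to 0.24 for Igfbp2, −0.11 to 0.16 for Igfbp4, −0.32 to 0.52 for Igfbp5 and −0.12 to 0.52 for Igfbp7; in astrocytes, −0.17 to 0.029 for Igf1r, −0.23 to 0.082 for Igf2r, −0.26 to 1.00 for Igfbp6 and −0.26 to 0.71 for Igfbp7; between cell types, −0.59 to 0.23 for Igfbp6; and for the interaction, −0.83 to 0.93 for Igf1 and −0.61 to 0.36 for Igfbp7.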
